A study of Mus musculus with 15 samples.

Results

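The CIDE proteins, the perilipins and the core lipolysis genes of the hepatocyte lipid droplet were examined in mouse liver. The 10 genes were Cidea, Cideb, Cidec, Plin2, Plin3, Plin4, Plin5, G0s2, Pnpla2 and Abhd5. They were picked by symbol from the 19938 genes that carry a single symbol in the array's annotation, and each of the 10 is measured by 1 transcript cluster, the set of probes along a gene that the array combines into 1 value. Male C57BL/6J mice were fed from week 8 with a basal diet, with Ath+HF, an atherogenic and high-fat diet, or with Ath+HF containing 3% branched-chain amino acids (BCAA). Livers were taken at week 38, after 30 weeks of diet, or at week 68, after 60 weeks. The 15 GeneChip Mouse Gene 1.0 ST arrays form 5 groups of 3, which are the basal diet group at 38w, the Ath+HF group at 38w and 68w, and the Ath+HF+BCAA group at 38w and 68w. All levels are log2 signals normalized by the authors, and a difference of 1 is a 2-fold change.

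Hepatocytes store triglyceride in droplets whose surface carries perilipins and CIDE proteins. Perilipins coat the droplet and limit the access of lipases, and CIDE proteins promote the fusion and growth of droplets or, in the case of Cideb, the lipidation of secreted lipoproteins. Pnpla2 encodes the adipose triglyceride lipase ATGL, which takes the initial step of triglyceride breakdown, Abhd5 encodes its activator CGI-58, and G0s2 encodes its inhibitor.

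The promoters of 9 of the 10 genes were found in the RefSeq promoter table of build GRCm38.p6, and none was printed for Cidea. The table holds 2 promoters each for Cidec and Plin5, of which the first listed is printed and the second held no match to the motifs searched. Each holds 300 bases, 250 before and 50 from the start of the transcript onward. Those of Plin2, Plin5, Cidec and G0s2 are given here because these genes moved together across the 15 arrays. They lie on the minus strand at chr4:86670010-86670309 (Plin2), chr17:56117499-56117798 (Plin5), chr6:113435711-113436010 (Cidec) and chr1:193273139-193273438 (G0s2), and are written 5′ to 3′. Capitals mark matches to the motifs.
Plin2: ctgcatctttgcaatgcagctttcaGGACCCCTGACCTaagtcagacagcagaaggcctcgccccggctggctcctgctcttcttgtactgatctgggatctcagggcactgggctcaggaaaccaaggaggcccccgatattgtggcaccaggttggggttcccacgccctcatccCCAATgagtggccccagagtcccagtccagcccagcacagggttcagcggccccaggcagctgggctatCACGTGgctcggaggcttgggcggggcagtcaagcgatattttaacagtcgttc
Plin5: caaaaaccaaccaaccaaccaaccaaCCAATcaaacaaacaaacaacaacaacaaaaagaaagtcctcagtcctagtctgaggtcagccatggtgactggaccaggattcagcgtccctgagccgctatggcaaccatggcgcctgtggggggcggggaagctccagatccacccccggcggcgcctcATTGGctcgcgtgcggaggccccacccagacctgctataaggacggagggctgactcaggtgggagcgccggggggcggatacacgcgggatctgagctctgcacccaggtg
Cidec: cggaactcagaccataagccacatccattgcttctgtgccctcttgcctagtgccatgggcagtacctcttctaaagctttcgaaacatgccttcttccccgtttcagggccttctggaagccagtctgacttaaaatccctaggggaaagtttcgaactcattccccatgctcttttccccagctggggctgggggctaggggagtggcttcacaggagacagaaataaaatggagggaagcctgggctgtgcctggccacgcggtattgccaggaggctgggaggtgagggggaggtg
G0s2: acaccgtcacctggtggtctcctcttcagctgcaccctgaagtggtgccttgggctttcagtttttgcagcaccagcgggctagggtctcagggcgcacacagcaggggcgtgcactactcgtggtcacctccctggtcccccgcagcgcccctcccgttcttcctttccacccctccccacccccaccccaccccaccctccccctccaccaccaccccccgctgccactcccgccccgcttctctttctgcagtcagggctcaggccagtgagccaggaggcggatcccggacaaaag

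The motifs were the DR1 element, which is the direct repeat of AGGTCA with 1 base between and is bound by PPAR and RXR dimers, with up to 2 mismatches, the E-box CACGTG, the cyclic AMP element TGACGTCA, the CCAAT box and the TATA box TATAAA, each on both strands. The Plin2 promoter held a DR1 match with 2 mismatches, an E-box and a CCAAT box, which did not overlap. The printed Plin5 promoter held a CCAAT box on either strand, and the promoters of Cidec and G0s2 held no match to the letters searched. Among the promoters not printed, those of Plin3 and Plin4 also held a CCAAT box and that of Cideb a TATA box. Of all 32851 promoters of the table, 3.86% held a DR1 match at this limit, 7.15% an E-box, 1.79% the cyclic AMP element, 37.4% a CCAAT box and 13.6% a TATA box. None of the motifs was found in all 4 printed promoters, and these matches are a description of sequence and not of binding. Plin4 and Plin5 are neighbouring genes on chromosome 17.

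Array medians lay between 6.91 and 7.04 in the 9 arrays of 38w and between 7.10 and 7.16 in the 6 arrays of 68w, so the weeks stood apart, and no arrays were identical. Hepatocyte markers such as Alb and Apoa1 had group means of 12.62 to 14.08, and 5 of 7 adipocyte markers, Adipoq among them at 4.86 to 5.06, stayed under 7.03, the median level of all transcript clusters, in every group. Macrophage and monocyte markers varied strongly between the groups. Their mean over 16 genes was 8.54 to 8.66 in the basal diet arrays, 9.59 to 9.91 in Ath+HF 38w and 9.47 to 9.92 in Ath+HF+BCAA 38w. At 68w it was 7.99 to 8.16 in the arrays labelled Ath+HF, below the basal diet arrays, and 10 to 10.42 in those labelled Ath+HF+BCAA. Groups are therefore named here by the labels of their arrays, and whether the labels of the 68w groups are exchanged was not tested. An exchange would turn the sign of every difference between the 68w groups and keep its size, and it would swap the comparisons of the 68w groups with the basal diet group. It would change the size, and for some genes the sign, of the differences from 38w. The difference of differences would change in size, and its sign would turn for every gene of the set. Values under both readings are given with those results for the genes called there. The sources do not say that each array is a separate mouse, so p-values measure the spread between these samples, which may be technical. They also do not say whether the 68w tissue contained tumor, and in bulk liver fewer cells of a type and less RNA per cell cannot be told apart.

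At 68w, 7 of the 10 genes were lower in the Ath+HF+BCAA group than in the Ath+HF group and none was higher, at an adjusted p under 0.05 from limma with the Benjamini-Hochberg method over all 19938 genes. Of all genes, 36.2% were called in this comparison and 16.4% were called lower. Cidec and G0s2 differed most, by 8.49-fold and 8.42-fold, followed by Plin5 (3.49-fold), Plin2 (2.24-fold), Pnpla2 (1.58-fold) and Cideb (1.46-fold). Cidea was lower by a measured 3.06-fold against arrays at 5.99 to 6.24, which lie under 7.03, the median level of all transcript clusters, so the size of this fold is uncertain. The remaining genes were Plin4, Abhd5 and Plin3, which did not pass the test. The median difference was -0.93 on the log2 scale over the 10 genes and -0.09 over all genes. The arrays of the 68w groups did not overlap for 9 of the 10 genes, all lower with BCAA, against 58.7% of all genes without overlap and 32.8% without overlap and lower.

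**Figure D1:**
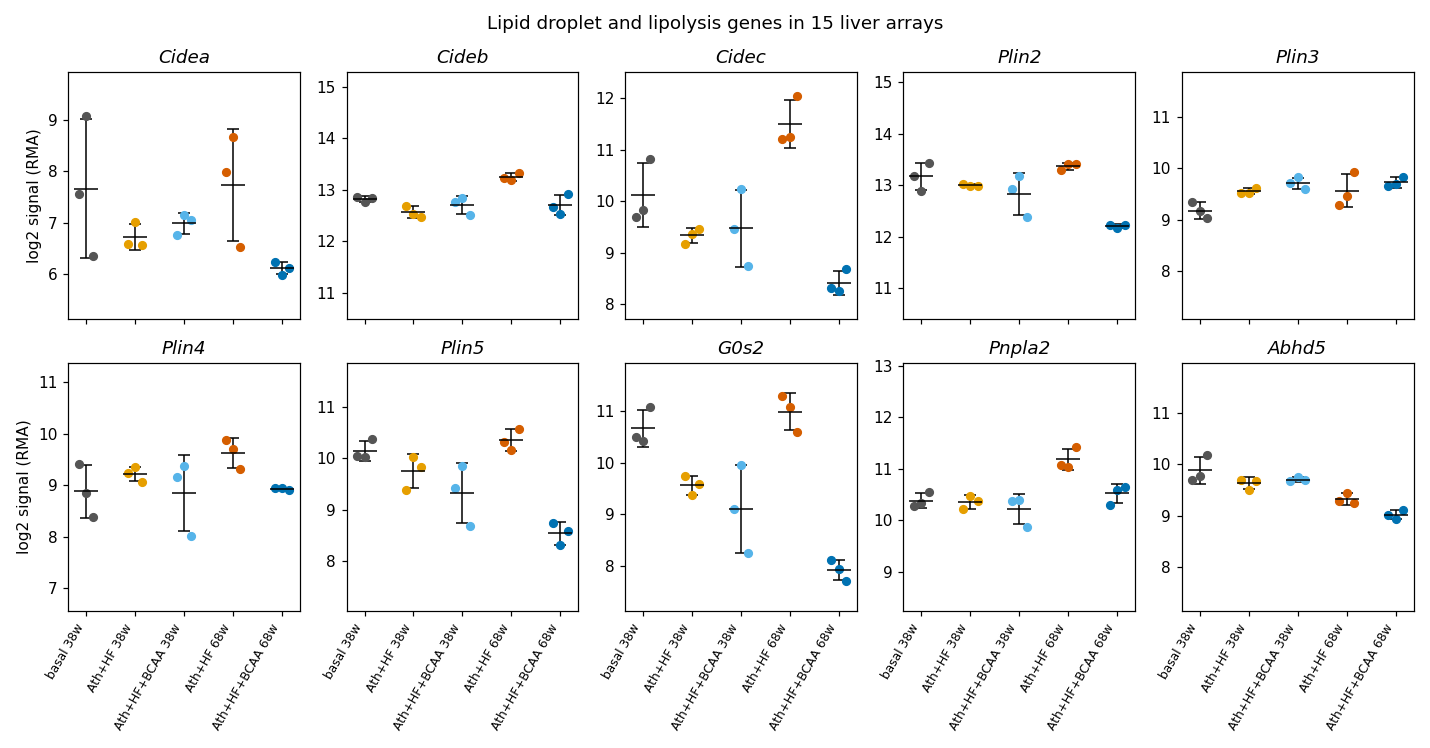
Log2 signal of the 10 genes (y axis) in each array (points) of the 5 diet and week groups (x axis), with the group mean as a long line and the SD of 3 arrays as an error bar. Cidec lay between 11.22 and 12.04 under the label Ath+HF 68w and between 8.26 and 8.69 under Ath+HF+BCAA 68w, while Plin3 stayed between 9.03 and 9.93 in all arrays.

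Cidec, also known as fat-specific protein 27, drives the exchange of lipid between touching droplets and is known to be induced in fatty liver. Its level was 9.69, 9.83 and 10.82 in the basal diet group, 9.18, 9.37 and 9.46 in Ath+HF 38w, and 9.46, 10.24 and 8.74 in Ath+HF+BCAA 38w. At 68w it was 11.22, 11.25 and 12.04 in the Ath+HF group and 8.31, 8.26 and 8.69 in the Ath+HF+BCAA group. The Ath+HF 68w arrays were above all others and the Ath+HF+BCAA 68w arrays below all others, while the 3 groups at 38w overlapped or lay close together. The difference between the 68w groups was -3.09 (SE 0.34, 95% interval -3.80 to -2.37, adjusted p = 3.14e-06). Relative to the basal diet group, Cidec was higher by 1.39 in Ath+HF 68w (SE 0.34, adjusted p = 0.00482) and 3.24-fold lower in Ath+HF+BCAA 68w (adjusted p = 0.000694).

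Cidea, best known from brown fat and also found in steatotic liver, varied widely within groups. Its level was 7.56, 9.07 and 6.36 in the basal diet arrays and 7.99, 8.67 and 6.54 in Ath+HF 68w, against 6.24, 5.99 and 6.13 in Ath+HF+BCAA 68w. At 38w it was 6.59, 7.01 and 6.56 in Ath+HF and 6.76, 7.15 and 7.06 in Ath+HF+BCAA. The Ath+HF+BCAA 68w arrays were below all others, whereas the basal diet and Ath+HF 68w arrays spread over more than 2 log2 units and overlapped the rest. The difference between the 68w groups was -1.61 (SE 0.53, adjusted p = 0.026). This call was lost when Ath+HF 68w replicate 1 or 2 or any of the 3 Ath+HF+BCAA 68w arrays was left out, with adjusted p of 0.0528 to 0.129. The difference of Ath+HF+BCAA 68w from the basal diet group was -1.54 (adjusted p = 0.0263), and it was -0.84 without basal diet replicate 2. That call was lost without basal diet replicate 1 or 2 or any Ath+HF+BCAA 68w array, with adjusted p of 0.05 to 0.147.

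Cideb, the hepatocyte member that acts in very-low-density lipoprotein assembly, was bright and little spread in every group. Its level was 12.86, 12.75 and 12.83 in the basal diet group, 13.23, 13.18 and 13.33 in Ath+HF 68w and 12.66, 12.53 and 12.92 in Ath+HF+BCAA 68w, and its group means at 38w were 12.56 ± 0.12 with Ath+HF and 12.70 ± 0.17 with BCAA added (SD, n = 3). The Ath+HF 68w arrays were the highest of the 15 and the other groups overlapped, except Ath+HF 38w, which lay under the basal diet arrays. The difference between the 68w groups was -0.55 (SE 0.11, adjusted p = 0.00143), and Ath+HF 68w exceeded the basal diet group by 0.44 (adjusted p = 0.00767). With array medians set equal, this excess over the basal diet group was 0.25 and no longer passed (adjusted p = 0.104).

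Plin2 codes for the main droplet coat protein of the steatotic hepatocyte, which is stabilized by stored lipid. It measured 13.17, 12.89 and 13.43 in the basal diet arrays, 13.03, 12.98 and 12.98 in Ath+HF 38w and 12.93, 13.17 and 12.38 in Ath+HF+BCAA 38w. At 68w the values were 13.29, 13.42 and 13.41 with Ath+HF and 12.23, 12.16 and 12.23 with BCAA added. All arrays except those of the Ath+HF+BCAA 68w group and Ath+HF+BCAA 38w replicate 3 lay within a narrow band, and the Ath+HF+BCAA 68w arrays were the lowest. The 68w groups differed by -1.16 (SE 0.16, 95% interval -1.51 to -0.82, adjusted p = 3.95e-05). Ath+HF+BCAA 68w was lower than the basal diet group by 1.95-fold (adjusted p = 0.000184), and Ath+HF 68w differed from it by 0.20 (95% interval -0.14 to 0.55, adjusted p = 0.335).

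Plin5, a perilipin of oxidative tissues that links droplets to mitochondria, followed the order of Plin2. Its level was 10.04, 10.02 and 10.37 in the basal diet arrays, 9.38, 10.03 and 9.83 in Ath+HF 38w and 9.42, 9.84 and 8.69 in Ath+HF+BCAA 38w. It was 10.32, 10.15 and 10.57 in Ath+HF 68w and 8.75, 8.31 and 8.58 in Ath+HF+BCAA 68w. The Ath+HF+BCAA 68w arrays were under all arrays of the basal diet and Ath+HF groups, and overlapped the lowest array of Ath+HF+BCAA 38w. Plin5 differed between the 68w groups by -1.80 (SE 0.24, 95% interval -2.31 to -1.30, adjusted p = 2.12e-05), and that from the basal diet group was -1.60 (SE 0.24, adjusted p = 5.23e-05).

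Plin3, a perilipin that most cell types express and that binds nascent droplets, had its lowest group mean in the basal diet group. It was 9.34, 9.18 and 9.03 in the basal diet arrays, 9.52, 9.53 and 9.62 in Ath+HF 38w, 9.71, 9.83 and 9.61 in Ath+HF+BCAA 38w, 9.30, 9.47 and 9.93 in Ath+HF 68w and 9.66, 9.69 and 9.84 in Ath+HF+BCAA 68w. The basal diet arrays were the lowest, with only 1 array of the Ath+HF 68w group reaching their range. The difference between the 68w groups was 0.16 (95% interval -0.13 to 0.45, adjusted p = 0.355). Plin3 was higher than in the basal diet group by 0.53 in Ath+HF+BCAA 38w (adjusted p = 0.0325), by 0.39 in Ath+HF 68w (adjusted p = 0.0365) and by 0.55 in Ath+HF+BCAA 68w (adjusted p = 0.00393). With array medians set equal the last of these was 0.36 (adjusted p = 0.0354), while that of Ath+HF 68w was 0.20 and not called (adjusted p = 0.276). The call in Ath+HF+BCAA 38w was lost with quantile normalization, with all transcript clusters and with only these groups in the fit. Both of these calls were also lost without some single arrays, as given below.

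Plin4, which coats small droplets of adipocytes and muscle, did not pass the test in any of the 9 comparisons. Its group means were 8.88 ± 0.52 in the basal diet group, 9.22 ± 0.14 in Ath+HF 38w, 8.85 ± 0.73 in Ath+HF+BCAA 38w, 9.63 ± 0.29 in Ath+HF 68w and 8.93 ± 0.02 in Ath+HF+BCAA 68w (SD, n = 3). The 68w groups did not overlap and differed by -0.69 (95% interval -1.31 to -0.07, adjusted p = 0.0746). That difference passed in 4 of the 10 other alternatives (adjusted p of 0.00283 to 0.0418) and without Ath+HF+BCAA 38w replicate 3 (adjusted p = 0.0149). Ath+HF 68w differed from the basal diet group by 0.75 (adjusted p = 0.0539), and this passed in 5 of the 10 other alternatives and without any 1 of 4 arrays (basal diet replicate 1, Ath+HF+BCAA 38w replicate 2 or 3, Ath+HF 68w replicate 3), at adjusted p of 0.00987 to 0.0484. The widest spread, 8.01 to 9.38, was that of Ath+HF+BCAA 38w.

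G0s2, the inhibitor of ATGL, showed the largest difference from the basal diet group among the 10 genes, in Ath+HF+BCAA 68w. Its level was 10.50, 10.43 and 11.08 in the basal diet arrays, 9.74, 9.37 and 9.59 in Ath+HF 38w and 9.11, 9.96 and 8.25 in Ath+HF+BCAA 38w. It was 11.29, 11.09 and 10.60 in Ath+HF 68w and 8.11, 7.93 and 7.71 in Ath+HF+BCAA 68w. Both 38w diet groups were below all basal diet arrays, the Ath+HF 68w arrays were back in the basal diet range or slightly above it, and the Ath+HF+BCAA 68w arrays were the lowest of all. G0s2 differed between the 68w groups by -3.07 (SE 0.31, 95% interval -3.74 to -2.41, adjusted p = 1.64e-06). Against the basal diet group, G0s2 was 6.74-fold lower in Ath+HF+BCAA 68w (adjusted p = 3.95e-06), and in Ath+HF 68w the difference was 0.32 (95% interval -0.34 to 0.99, adjusted p = 0.434).

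Pnpla2, the lipase itself, measured 10.28, 10.33 and 10.54 in the basal diet arrays, 11.08, 11.03 and 11.42 in Ath+HF 68w and 10.30, 10.59 and 10.65 in Ath+HF+BCAA 68w, and its means at 38w were 10.35 ± 0.13 with Ath+HF and 10.21 ± 0.29 with BCAA added (SD, n = 3). The Ath+HF 68w arrays stood above the other 12, whose groups overlapped. Pnpla2 differed between the 68w groups by -0.66 (SE 0.15, adjusted p = 0.0029), and Ath+HF 68w exceeded the basal diet group by 0.79 (adjusted p = 0.00102). In Ath+HF+BCAA 68w the lipase differed from the basal diet group by 0.13 (95% interval -0.19 to 0.45, adjusted p = 0.5), in the arrays where its inhibitor G0s2 was lowest.

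Abhd5, the ATGL activator, was the only one of the 10 genes that was lower than in the basal diet group in both 68w groups. It was 9.70, 9.76 and 10.17 in the basal diet arrays, 9.29, 9.44 and 9.24 in Ath+HF 68w and 9.02, 8.94 and 9.10 in Ath+HF+BCAA 68w, with 9.63 ± 0.11 in Ath+HF 38w and 9.70 ± 0.04 in Ath+HF+BCAA 38w (SD, n = 3). The arrays of both 68w groups lay under every 38w array. The difference was -0.55 in Ath+HF 68w (SE 0.12, adjusted p = 0.00196) and -0.86 in Ath+HF+BCAA 68w (SE 0.12, adjusted p = 2.27e-05). Between the 68w groups it was -0.30 (95% interval -0.55 to -0.05, adjusted p = 0.0541). This passed in 5 of the 10 other alternatives (adjusted p of 0.00346 to 0.037). It also passed without basal diet replicate 1 or 3 (adjusted p of 0.0185 to 0.0438).

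**Figure D2:**
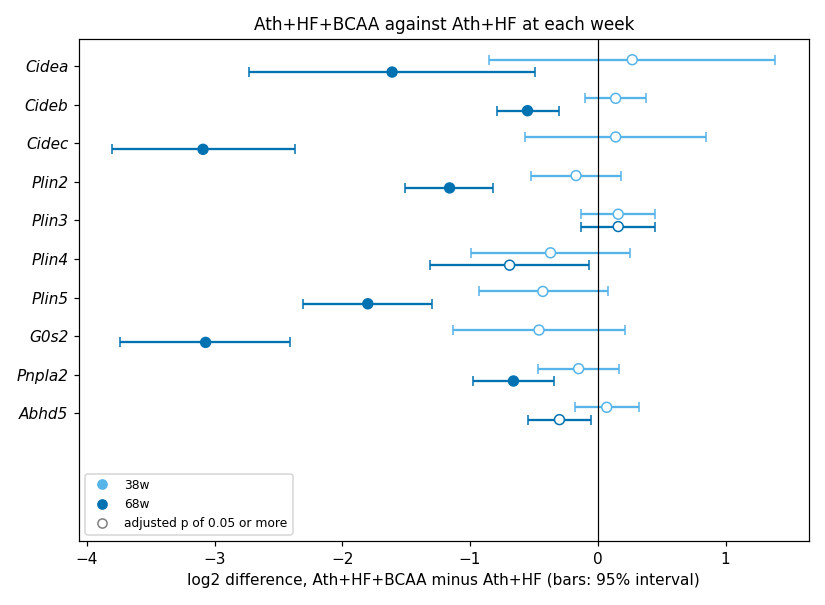
Log2 difference of Ath+HF+BCAA minus Ath+HF (x axis) for each of the 10 genes (y axis) at 38w and at 68w, with the 95% interval as a bar and filled points where the adjusted p was under 0.05. At 38w all intervals include 0, and at 68w 7 genes were called lower, with Cidec at -3.09 and G0s2 at -3.07.

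At 38w no difference between the Ath+HF groups with and without BCAA passed the test. None of the 10 genes was called between Ath+HF+BCAA and Ath+HF, none had an unadjusted p under 0.05, and limma called 0% of all genes. The differences ran from -0.46 (G0s2, 95% interval -1.13 to 0.21) to 0.27 (Cidea, 95% interval -0.85 to 1.39), so a change of more than 2-fold is outside the interval for some genes, such as Cideb at 0.14 (95% interval -0.10 to 0.38), and inside it for others. No gene was without overlap, against 11.1% of all genes. Whether the difference between the groups labelled Ath+HF+BCAA and Ath+HF was itself different at 68w was tested as a difference of differences. It was called for 5 of the 10 genes, all lower at 68w, against 20.6% of all genes called and 7.67% called lower. The values were -3.23 for Cidec (SE 0.47, adjusted p = 0.000158), -2.61 for G0s2 (SE 0.44, adjusted p = 0.000531), -1.38 for Plin5 (SE 0.33, adjusted p = 0.0079), -1.0 for Plin2 (SE 0.23, adjusted p = 0.00575) and -0.69 for Cideb (SE 0.16, adjusted p = 0.00632). With the 68w labels exchanged, the group means would give 2.94 for Cidec, 3.54 for G0s2, 2.23 for Plin5, 1.33 for Plin2 and 0.41 for Cideb, which are stated without a test.

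**Figure D3:**
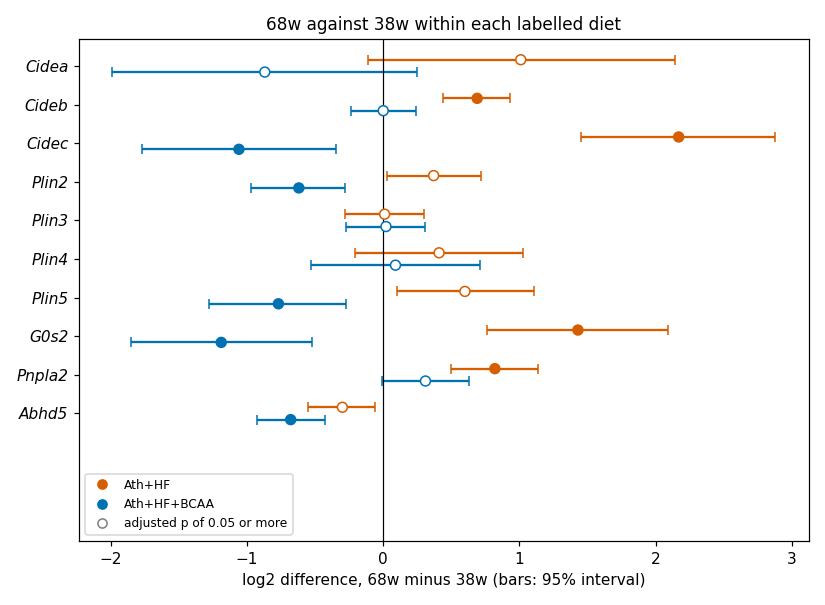
Log2 difference of 68w minus 38w (x axis) for the 10 genes (y axis) within Ath+HF and within Ath+HF+BCAA, with 95% intervals and filled points where the adjusted p was under 0.05. Cidec and G0s2 were called on both sides of 0, at 2.17 and 1.43 in the arrays labelled Ath+HF and at -1.06 and -1.19 in those labelled Ath+HF+BCAA.

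From 38w to 68w, Cidec and G0s2 were called in both diets, higher with Ath+HF and lower with Ath+HF+BCAA. The week, the time on the diet and any batch cannot be told apart in these comparisons. The signs were alike in both diets for Pnpla2 (0.82 and 0.31) and Abhd5 (-0.30 and -0.68), the Ath+HF value given before that with BCAA. Those of Plin4 (0.41 and 0.09) and Plin3 (0.01 and 0.02) depended on the scaling, since with array medians set equal Plin4 with BCAA was -0.07 and Plin3 was -0.11 and -0.14. In the Ath+HF group, 4 of the 10 were higher at 68w and none lower, against 37.6% of all genes called and 17.6% called higher, so the number called was near the share of all genes. These were Cidec (2.17, SE 0.34, adjusted p = 0.000207), G0s2 (1.43, SE 0.31, adjusted p = 0.00259), Pnpla2 (0.82, SE 0.15, adjusted p = 0.00075) and Cideb (0.69, SE 0.11, adjusted p = 0.000353). With array weights 8 were called, 7 higher and 1 lower, while the calls over all 19938 genes rose from 7503 to 8713. Abhd5 (-0.30, adjusted p = 0.0508) was called lower in 5 of the 10 other alternatives. It was also called without basal diet replicate 1 or 3 or Ath+HF 38w replicate 2. The groups did not overlap for 7 genes, 6 of them higher, against 52.1% of all genes and 26.8% on the higher side. In the Ath+HF+BCAA group, 5 of the 10 were lower at 68w and none higher, against 38.8% of all genes called and 18.3% called lower. The arrays did not overlap for 5 genes, all lower, against 52.5% of all genes and 24.3% on the lower side. The genes called were G0s2 (-1.19, SE 0.31, adjusted p = 0.00723), Cidec (-1.06, SE 0.34, adjusted p = 0.0205), Plin5 (-0.77, SE 0.24, adjusted p = 0.0172), Abhd5 (-0.68, SE 0.12, adjusted p = 0.000316) and Plin2 (-0.62, SE 0.16, adjusted p = 0.00687). The median of the 10 genes was 0.65 with Ath+HF, where that of all genes was 0.05, and -0.65 with Ath+HF+BCAA, where that of all genes was 0.03. For Cidec the call with BCAA was lost without Ath+HF+BCAA 38w replicate 2, where the difference was -0.68 in place of -1.06, and without Ath+HF+BCAA 68w replicate 1 or 2, with adjusted p of 0.0642 to 0.107. For Plin5 it was lost without Ath+HF+BCAA 38w replicate 1 or 2 or Ath+HF+BCAA 68w replicate 2, with adjusted p of 0.0516 to 0.0909 and a difference of -0.51 without Ath+HF+BCAA 38w replicate 2. The G0s2 difference was -0.76 without that array and passed (adjusted p = 0.0338). With the methods' test, which adjusts p over pairs of groups and not over genes, only Abhd5 of these 5 was called. Ath+HF+BCAA 38w replicate 2 was the highest of its group for all 10 genes, and replicate 3 the lowest for 8. With the 68w labels exchanged, the Ath+HF change from 38w would be -0.92 for Cidec, -1.65 for G0s2, -1.20 for Plin5, -0.79 for Plin2, 0.14 for Cideb and 0.16 for Pnpla2. The Ath+HF+BCAA change would be 2.03 for Cidec, 1.89 for G0s2, 1.03 for Plin5, 0.54 for Plin2 and -0.38 for Abhd5, again without a test.

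**Figure D4:**
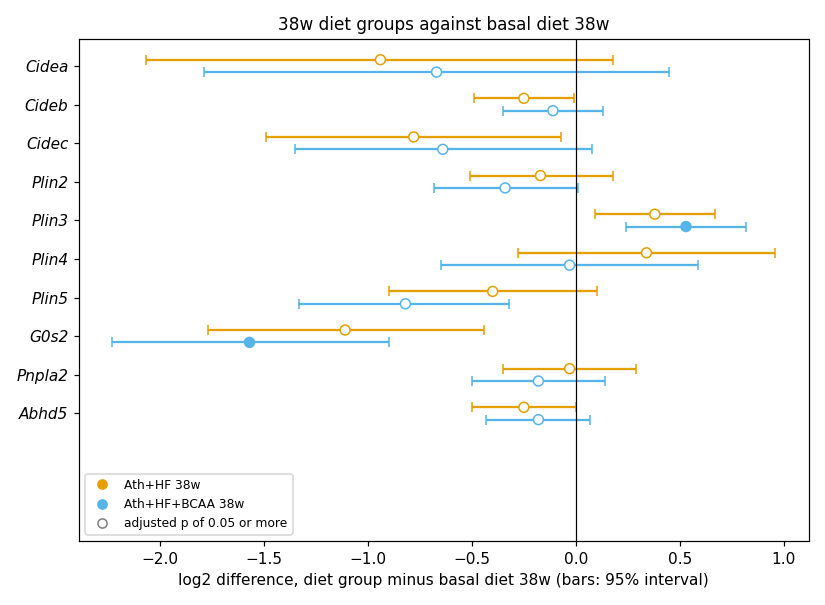
Log2 difference of each 38w diet group minus the basal diet group at 38w (x axis) for the 10 genes (y axis), with 95% intervals and filled points where the adjusted p was under 0.05. Plin3 at 0.53 and G0s2 at -1.57, both in Ath+HF+BCAA, are the filled points.

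Against the basal diet of the same week, few of the genes passed the test. In Ath+HF 38w limma called none of the 10, against 4.23% of all genes, and 5 had an unadjusted p under 0.05. Of these, G0s2 differed by -1.11 (SE 0.31, adjusted p = 0.0603), Cidec by -0.78 (adjusted p = 0.238) and Plin3 by 0.38 (adjusted p = 0.151). The arrays did not overlap for 4 genes, against 21% of all genes. G0s2 was called when Ath+HF+BCAA 38w replicate 2 or 3, which is not part of this comparison but enters the common estimate of the spread, was left out (adjusted p of 0.012 to 0.0126). In Ath+HF+BCAA 38w, 2 of the 10 were called, against 5.49% of all genes. G0s2 was lower by 2.96-fold (SE 0.31 on the log2 scale, adjusted p = 0.00822) and Plin3 was higher by 1.45-fold (SE 0.14, adjusted p = 0.0325). With only these groups in the fit, neither was called. The call of Plin3 was also lost without basal diet replicate 2 or 3 or any Ath+HF+BCAA 38w array (adjusted p of 0.0505 to 0.115). The arrays did not overlap for 3 genes, against 20.9% of all genes. Plin5, the remaining one without overlap, differed by -0.82 (SE 0.24, adjusted p = 0.0552), and it was called without Ath+HF 38w replicate 1 or Ath+HF+BCAA 38w replicate 2 (adjusted p of 0.00943 to 0.049).

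Both 68w groups could be set only against basal diet arrays of 38w, so the diet, the week and any batch cannot be told apart in these comparisons. In Ath+HF 68w 4 of the 10 genes, Cideb, Cidec, Plin3 and Pnpla2, were higher and Abhd5 was lower, against 38.1% of all genes called and 19% called higher. The arrays did not overlap for 4 genes, against 50.1% of all genes. In Ath+HF+BCAA 68w, Plin3 was higher and 6 genes, Cidea, Cidec, Plin2, Plin5, G0s2 and Abhd5, were lower, against 44.6% of all genes called and 21.8% called lower. The arrays did not overlap for 7 genes, 6 of them lower, against 56.2% of all genes and 27.1% on the lower side, and the median difference was -0.91, where that of all genes was 0.01. These comparisons and those at 38w share the basal diet arrays. For Plin3 the call in Ath+HF 68w was lost without basal diet replicate 2 or 3 or Ath+HF 68w replicate 3 (adjusted p of 0.0708 to 0.197), and with array medians set equal, where the difference was 0.20 (adjusted p = 0.276).

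Other genes of lipid storage were read from 4 lists, of which 41 of 43 genes were found. Between the 68w groups 30 of the 41 were called, 24 lower and 6 higher in Ath+HF+BCAA, with a median of -0.44. Of all genes, 36.2% were called and 16.4% called lower, with a median of -0.09. In droplet formation and coat, 8 of 11 were lower and none higher, a called share of 72.7%. They included Fitm1 (-1.89, SE 0.20, adjusted p = 2.47e-06) and Fitm2 (-1.53, SE 0.15, adjusted p = 1.21e-06), which help droplets bud from the endoplasmic reticulum, and Hilpda (-1.26, SE 0.22, adjusted p = 0.000318), a hypoxia-induced inhibitor of ATGL whose mean of 6.64 in Ath+HF+BCAA 68w lay under 7.03. Plin1, the perilipin of adipocytes, differed by -0.06 (95% interval -0.34 to 0.23, adjusted p = 0.75) at group means of 6.87 to 7.30.

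Among other lipid hydrolases 6 of 8 were lower and 1 higher, a called share of 87.5%. Mgll, which codes for monoacylglycerol lipase and completes the breakdown that ATGL begins, was lower by 12.7-fold (-3.67, SE 0.18, adjusted p = 2.24e-09), with group means of 11.27 ± 0.22 in the basal diet group, 10.34 ± 0.14 in Ath+HF 38w, 10.20 ± 0.32 in Ath+HF+BCAA 38w, 11.94 ± 0.12 in Ath+HF 68w and 8.27 ± 0.35 in Ath+HF+BCAA 68w (SD, n = 3). Ces1d, a triglyceride hydrolase of the endoplasmic reticulum, differed by -1.28 (SE 0.17, adjusted p = 1.77e-05) and was lower, and its relative Ces1g was higher by 2.37 (SE 0.38, adjusted p = 0.000151). Ces1d and Ces1g are close paralogs in a gene cluster, so probes may be shared between them. In triglyceride synthesis 7 of 13 were lower and 2 higher, a called share of 69.2%. Agpat2 (-0.67), Agpat3 (-0.61) and Gpat4 (-0.78), acyltransferases that build glycerolipids, were lower, as was Mogat1 (-0.95, adjusted p = 0.00144), a monoacylglycerol acyltransferase of fatty liver, although its means of 6.58 and 5.63 in the 68w groups were both under 7.03 and the size of its difference is uncertain.

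Of the 9 transcriptional regulators 3 were lower and 3 higher, a called share of 66.7%. Creb3l3, a liver-enriched factor activated from the endoplasmic reticulum, differed by -0.80 (SE 0.13, adjusted p = 0.000211) and Rxra, the partner of PPARs, by -0.44 (adjusted p = 0.000595). Srebf1, which drives fatty acid synthesis, was higher by 1.53 (SE 0.33, adjusted p = 0.00216) and Pparg by 0.68 (adjusted p = 0.0038). Thus, members of the same list lay on both sides of 0.

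**Figure D5:**
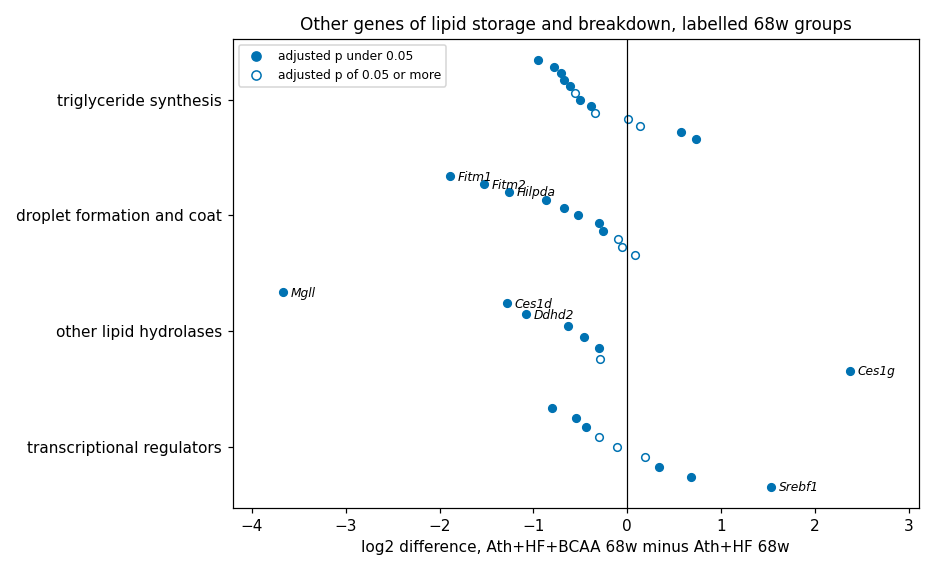
Log2 difference of Ath+HF+BCAA 68w minus Ath+HF 68w (x axis) for 41 other genes of lipid storage and breakdown in 4 lists (y axis), 1 point per gene, filled where the adjusted p was under 0.05. Mgll at -3.67 and Ces1g at 2.37 are the extremes, and 24 filled points lie below 0 against 6 above it.

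In the other comparisons the 41 genes were called as follows, with the share of all genes called beside each. Against the basal diet group, 3 were lower in Ath+HF 38w (7.32%, against 4.23% of all genes) and 7 in Ath+HF+BCAA 38w (17.1%, against 5.49%), with none higher in either. In Ath+HF 68w 7 were higher and 9 lower (39%, against 38.1%), close to the share of all genes. In Ath+HF+BCAA 68w 9 were higher and 21 lower (73.2%, against 44.6%). From 38w to 68w, 14 were higher and 5 lower with Ath+HF (46.3%, against 37.6%), and 9 were higher and 18 lower with Ath+HF+BCAA (65.9%, against 38.8%). Between the 38w diet groups limma called 0 of 41 and 0% of all genes, with 4 of the 41 at an unadjusted p under 0.05. The difference of differences was called for 3 higher and 16 lower (46.3%, against 20.6%).

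Likeness of pattern was described by Pearson's r over the 15 arrays, so every r rests on the same arrays and the same 5 groups. Among the 10 genes, Plin2 and Plin5 had an r of 0.95, Plin2 and G0s2 of 0.94 and Plin5 and G0s2 of 0.93, and Cidec had an r of 0.88 with each of these. Among all genes, Gm15441 (0.988), Creb3l3 (0.98) and Lgals4 (0.975) were nearest to Plin2, and Fpgs (0.975), Oplah (0.961) and Gm15441 (0.957) to Plin5. The nearest to G0s2 were Acot1 (0.984), Elmod3 (0.979) and Acot8 (0.977), of which Acot1 and Acot8 code for acyl-CoA thioesterases. Cidec was nearest to Igsf11 (0.98), 2010003K11Rik (0.975) and Serinc2 (0.961), and Cidea to Wfdc2 (0.887), Cdh18 (0.86) and Wfdc1 (0.858).

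Markers of cell types were read in the same comparisons. Between the 68w groups 36.2% of all genes were called. There 13 of 16 macrophage and monocyte markers (81.2%) were higher in Ath+HF+BCAA, with a median of 2.04. Those not called were Clec4f, Marco and Timd4. Of 6 hepatic stellate cell markers 4 (66.7%) were higher, at a list mean of 9.08 to 9.25 against 8.23 to 8.44. Of 8 hepatocyte markers 2 (25%), Ttr and Cyp2e1, were lower, a called share under that of all genes. The hepatocyte list mean was 13.38 to 13.49 against 13.52 to 13.61, without overlap, where 58.7% of all genes had none. The part of these markers in the lower droplet genes was not tested. The adipocyte list mean was 6.01 to 6.18 with BCAA and 6.11 to 6.20 without, and 5 of its 7 genes, Adipoq, Lep, Adig, Trarg1 and Ucp1, had means under 7.03 in every group. Of the others, Retn was lower with BCAA at 68w (-0.50, adjusted p = 0.00202), from 7.22 to 6.71, and Aqp7 differed by 0.62 (adjusted p = 0.0686). Their part was not tested either. At 38w 11 of 16 macrophage markers (68.8%) were higher than in the basal diet group in either diet group. Of all genes, 4.23% were called with Ath+HF and 5.49% with BCAA added. The lower G0s2 and higher Plin3 values given above come from the same arrays.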

How the data were processed

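Liver RNA was hybridized to 15 arrays, and samples were grouped by their labels alone. The authors ran RMA in Affymetrix Expression Console (no version stated) and deposited log2 values per transcript cluster. RMA makes the distributions of probe signals alike across arrays, so a shift of all genes together would not be seen. From the deposited log2 values, 35556 transcript clusters were named through the platform annotation. Of these, 21789 had 1 symbol, 1621 had several and 12146 had none here, and each of 19938 genes was represented by its brightest cluster. Group means were fitted over all 15 arrays with limma 3.58.1 in R 4.3.3, leaving 10 residual degrees of freedom, and 9 comparisons were tested. P-values were adjusted by the Benjamini-Hochberg method over all genes and called under 0.05. The fit was tested on simulated data. No depth applies, and the number of arrays limits the precision. The 10 genes and the lists were chosen with earlier results of these data known. All 10 genes are named, with at most 4 called genes of each list having the smallest p in a comparison, and the 3 genes most correlated with each member whose group means span over 1 on the log2 scale. Same-numbered arrays of different groups were checked for pairing and were not blocked. Alternatives were other scalings, filters, variance models, array weights, the methods' test, groups fitted alone, and leaving out each array. The methods' test is the analysis of variance with Bonferroni's method over pairs of groups, without adjustment over genes. Acsl3, Lipc and Cfd were not matched. The study's other assays are not analysed here.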

Additional observations from a re-analysis of the deposited data

Results flagged for a closer look

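The difference between Ath+HF+BCAA and Ath+HF was itself different at 68w and at 38w for 5 of the 10 genes, by limma's test of the difference of differences. Of all genes, 20.6% were called by this test and 7.67% were called lower. The difference of differences was -3.23 for Cidec (adjusted p = 0.000158), from 0.14 at 38w to -3.09 at 68w. It was -2.61 for G0s2 (adjusted p = 0.000531), from -0.46 to -3.07. For Plin5 it was -1.38 (adjusted p = 0.0079), for Plin2 -1.0 (adjusted p = 0.00575) and for Cideb -0.69 (adjusted p = 0.00632). The same term compares the change from 38w to 68w between the diets, which for Cidec was 2.17 with Ath+HF and -1.06 with BCAA added. All these values rest on the labels of the 68w groups, and with these exchanged they would be 2.94 for Cidec, 3.54 for G0s2, 2.23 for Plin5, 1.33 for Plin2 and 0.41 for Cideb. The arrays labelled 68w also had the lowest and the highest macrophage marker levels, as given above, whose part was not tested.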

How the results depend on the processing

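Of the 35 differences of the 10 genes called over the 9 comparisons, 35 kept their direction under all 15 omissions of an array and the 10 other alternatives (9 for the difference of differences, to which the methods' test was not applied), 29 stayed called under every omission and 24 under everything tried. The 11 that were not called throughout were Cidea between the 68w groups and in Ath+HF+BCAA 68w against basal diet, Plin3 in Ath+HF+BCAA 38w and Ath+HF 68w against basal diet, G0s2 in Ath+HF+BCAA 38w and Cideb and Cidec in Ath+HF 68w against basal diet, and Cidec, Plin2, Plin5 and G0s2 in Ath+HF+BCAA 68w against 38w. The cause was not tested. The number of calls among the 10 genes moved as follows. For Ath+HF 38w against basal diet it was 1 in place of 0 without dim genes (mean under 7.03), with array medians equal, with array weights and with the groups compared alone, and 0 to 1 over the omissions. For Ath+HF+BCAA 38w against basal diet it was 1 in place of 2 with quantile normalization and with all transcript clusters, 0 with the groups alone, and 1 to 3 over the omissions, being 1 without basal diet replicate 2 or 3 or Ath+HF+BCAA 38w replicate 1 or 3. For Ath+HF 68w against basal diet it was 3 in place of 5 with array medians equal and with the methods' test with Bonferroni's method, and 4 to 6 over the omissions. For Ath+HF 68w against 38w it was 8 with array weights and 7 with the groups alone, in place of 4, and 4 to 6 over the omissions. For Ath+HF+BCAA 68w against 38w it was 1 in place of 5 with the methods' test and 3 to 5 over the omissions, being 3 without Ath+HF+BCAA 38w replicate 2 or Ath+HF+BCAA 68w replicate 2. For the difference of differences it was 8 in place of 5 with array weights and 5 to 6 over the omissions. Between the 68w groups it was 6 to 8 and for Ath+HF+BCAA 68w against basal diet 6 to 7 over the omissions. The calls over all 19938 genes moved too. With array weights they were 8713 in place of 7503 for Ath+HF 68w against 38w. For the difference of differences they were then 5205 in place of 4102. With the groups alone they were 7337 for Ath+HF 68w against 38w. With the methods' test they were 4998 in place of 7603 for Ath+HF 68w against basal diet, and 5382 in place of 7735 for Ath+HF+BCAA 68w against 38w.

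Among the 41 other lipid storage genes, the count for Ath+HF 38w against basal diet was 5 without dim genes and with quantile normalization and 6 with array medians equal and with a variance trend and robust fit, in place of 3, and 2 to 5 over the omissions, being 5 without Ath+HF+BCAA 38w replicate 3. Without dim genes, any of the 41 with a mean under 7.03 was left out of the test, so that count may rest on fewer genes. For Ath+HF+BCAA 38w against basal diet the count was 2 in place of 7 with the groups alone. With the methods' test it was 8 in place of 16 for Ath+HF 68w against basal diet, 12 in place of 19 for Ath+HF 68w against 38w, and 1 in place of 0 between the 38w diet groups. That test adjusts p over pairs of groups and not over genes, so its counts follow another rule than those of limma. Between the 38w diet groups it called 201 of all 19938 genes, where limma called 0. Omissions gave 12 to 21 of the 41 genes for Ath+HF 68w against 38w, being 12 without Ath+HF 38w replicate 3.

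Equal array medians moved the median of all genes from 0.05 to -0.14 for Ath+HF 68w and from 0.01 to -0.18 for Ath+HF+BCAA 68w against basal diet, and from 0.05 to -0.06 and 0.03 to -0.12 for 68w against 38w. Only differences that had not been called turned sign. With array medians equal these were Cidea (-0.12) in Ath+HF 68w and Plin4 (-0.13) and Pnpla2 (-0.05) in Ath+HF+BCAA 68w against basal diet, Plin3 (-0.11) for Ath+HF 68w against 38w, Cideb (-0.15), Plin3 (-0.14) and Plin4 (-0.07) for Ath+HF+BCAA 68w against 38w, and Plin3 (-0.03) in the difference of differences. With quantile normalization Cidea was -0.02 in Ath+HF 68w against basal diet. With array weights Plin4 was 0.15 in Ath+HF+BCAA 38w against basal diet, Plin3 -0.07 for Ath+HF 68w against 38w, and Cideb -0.07, Plin3 -0.02 and Plin4 -0.10 for Ath+HF+BCAA 68w against 38w. Over the omissions of an array, the values that changed sign ranged from -0.09 to 0.05 for Pnpla2 in Ath+HF 38w, from -1.32 to 0.03 for Cidea and from -0.30 to 0.39 for Plin4 in Ath+HF+BCAA 38w, from -0.58 to 0.77 for Cidea in Ath+HF 68w and from -0.20 to 0.32 for Plin4 in Ath+HF+BCAA 68w, all against basal diet. Between 68w and 38w they ranged from -0.17 to 0.14 for Plin3 with Ath+HF, and from -0.11 to 0.09 for Cideb, -0.04 to 0.07 for Plin3 and -0.33 to 0.35 for Plin4 with Ath+HF+BCAA. Between the 38w diet groups they ranged from -0.24 to 0.51 for Cidec, -0.34 to 0.05 for Plin2, -0.63 to 0.05 for Plin4 and -0.24 to 0.02 for Pnpla2, and in the difference of differences from -0.12 to 0.19 for Plin3.

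Same-numbered arrays of different groups had correlations of -0.156 to 0.183 over 30 pairs, with 3 over 0.1. Pairs with different numbers ran from -0.188 to 0.197. Between the basal diet and Ath+HF groups at 38w, same-numbered pairs had 0.061 to 0.174 and the others -0.141 to -0.023. Whether the numbers pair any of the arrays was not settled by these values. With the replicate number as a block, 6 of the 10 genes in place of 5 were called for Ath+HF 68w against basal diet, 8 in place of 7 between the 68w groups and 6 in place of 5 in the difference of differences, and the other counts of the 10 genes did not move. The gains were Plin4 (adjusted p = 0.0155 and 0.0224) and Cidea (0.0412). The calls over all genes in these comparisons were 7511, 7088 and 3997, in place of 7603, 7221 and 4102.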
